A study of Homo sapiens with 44 samples.

Results

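The insulin-like growth factor axis was described here through 10 genes taken by symbol. They were the ligand gene IGF2, the 2 receptor genes IGF1R and INSR, the 2 adaptor genes IRS1 and IRS2, and the 5 binding protein genes IGFBP1, IGFBP3, IGFBP4, IGFBP5 and IGFBP6. All 10 were present among the 25689 gene symbols of each RNA table. Taking rows by symbol used no measured value except in A549 cells, where a gene was represented by its transcript with the most reads. The genes themselves were chosen with earlier results of these data known.

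IGF2 is a secreted growth factor that binds the receptor tyrosine kinase IGF1R and an isoform of the insulin receptor INSR. The activated receptors phosphorylate the adaptors IRS1 and IRS2, which recruit PI3K and so switch on AKT, and AKT in turn keeps FOXO transcription factors out of the nucleus. IGF binding proteins hold the ligands in the extracellular fluid and limit or prolong their access to the receptor, and IGFBP1 and IRS2 are textbook FOXO targets whose genes also respond to glucocorticoids in liver.

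The study asked how IRF2BP2, a nuclear cofactor of transcription, affects signalling by the glucocorticoid receptor and by tumour necrosis factor (TNF). The cells were A549, a lung adenocarcinoma line, and HEK293-GR, an embryonic kidney line made to express the glucocorticoid receptor constantly from a gene inserted at a fixed site, so its receptor is not under its own promoter. A pool of small interfering RNAs against IRF2BP2 (siIRF2BP2) or a non-targeting pool (siNON) was given at 20 nM for 72 h in medium stripped of steroids. HEK293-GR cells then received 100 nM dexamethasone (dex, a synthetic glucocorticoid) or ethanol vehicle for 6 h, which gave 4 groups: siIRF2BP2 with dex, siNON with dex, siIRF2BP2 with vehicle and siNON with vehicle. A549 cells were given, for the same 6 h, both dex and TNF, dex alone, 10 ng/ml TNF alone or vehicle, each with siIRF2BP2 or siNON, which gave 8 groups. IRF2BP2 binding was mapped by ChIP-seq in HEK293-GR cells after 1 h of dex or vehicle, without a small interfering RNA in the labels.

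Each HEK293-GR group had 3 libraries in the table, with 18.2 to 28.5 M tags per library. A level is given in FPKM, reads scaled by exon length and by the tags of the library, so that HEK293-GR levels may be compared between genes. Changes there are log2 differences of FPKM plus 0.1 with their standard errors (SE), from 1 limma fit of all 12 libraries, and a change was called at an adjusted p under 0.05 over 15594 genes. For A549 cells each group is a single column in which the authors had pooled replicates, with 35.8 to 56.9 M tags and FPKM taken per genomic span, so those levels have no error and are compared only within a gene. Labels do not say that replicates came from separate cultures, so a p-value covers the spread between these libraries, which may be technical. In bulk RNA, fewer cells with a transcript and less RNA per cell cannot be told apart.

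The targeted gene IRF2BP2 averaged 12.7 ± 0.96 FPKM in siIRF2BP2 and 22.9 ± 2.41 FPKM in siNON HEK293-GR cells with vehicle, and 10.4 ± 0.752 against 20.0 ± 0.605 FPKM with dex (SD, n = 3 each). For A549 cells, IRF2BP2 in the authors' deposited table had log2 fold changes of -0.31 with vehicle, -0.66 with dex, -0.40 with TNF and -0.62 with both. Its pooled A549 level with vehicle was 26.3 FPKM in siIRF2BP2 and 29.7 FPKM in siNON cells. These samples hold no other small interfering RNA against IRF2BP2, so loss of IRF2BP2 and other effects of the pool cannot be told apart in either line. Among markers of HEK293 cells, 5 of 8 fell with dex under either small interfering RNA, where 4.59% (siIRF2BP2) and 9.82% (siNON) of all genes fell. Their summed level with dex was 89.7 to 99.1 FPKM in siIRF2BP2 and 101 to 105 FPKM in siNON libraries. With vehicle it was 133 to 146 FPKM in siIRF2BP2 and 146 to 168 FPKM in siNON libraries. Of 4 A549 markers tested in HEK293-GR cells S100P alone passed, with a mean of 58.5 FPKM in siIRF2BP2 and 72.6 FPKM in siNON cells with dex, against 2.92 FPKM in siIRF2BP2 and 1.19 FPKM in siNON cells with vehicle. The summed A549 markers were at 131 to 167 FPKM with dex and 84.2 to 98.8 FPKM with vehicle in siIRF2BP2 libraries, and at 176 to 188 against 92.7 to 111 FPKM in siNON libraries. Most of the vehicle sum came from KRT18 (48.2 to 67.7 FPKM over all HEK293-GR libraries) and CDKN2A (29.1 to 46.3 FPKM). CDKN2A was nearly absent from A549 cells, at 0 to 0.002 FPKM, so this sum is no measure of likeness to A549 cells. The summed markers of blood, endothelial and fibroblast cells were at 8.59 to 10.1 FPKM in siIRF2BP2 and 12.8 to 13.3 FPKM in siNON libraries with dex. With vehicle they were at 7.998 to 10.6 FPKM in siIRF2BP2 and 8.898 to 14.1 FPKM in siNON libraries, which overlap. The keratins KRT7 and KRT81 were at most at 0.029 and 0.043 FPKM. Of 7 A549 markers measured in A549 cells, 5 or 6 fell after knockdown in each treatment, where 16.5 to 19.2% of all genes fell. The summed level of all 8 A549 markers was 1123 to 2139 FPKM in siIRF2BP2 and 1778 to 2833 FPKM in siNON columns. The surfactant gene SFTPB was nearly absent at 0.013 to 0.036 FPKM. Of 6 markers of blood, endothelial or fibroblast cells measured there, CD14 and COL1A1 rose after knockdown with vehicle and COL3A1 fell, where 16.2% of all genes rose and 18.1% fell. Their summed level over the full list of 8 was 5.17 to 7.89 FPKM with siIRF2BP2 and 2.82 to 3.97 FPKM with siNON, and the leukocyte gene PTPRC was at 0 to 0.001 FPKM. Whether these marker shifts had a part in the changes below was not tested. Replicate 3 of siNON with vehicle stood apart: without it, knockdown with vehicle changed 4815 genes in HEK293-GR cells, against 2414 with it.

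The 250 bases before the transcription start were available for 8 of the 10 genes from RefSeq (GRCh38.p14), all but IGF2 and IGFBP1. Their GC content ran from 61.2% at IGFBP5 and IGFBP6 to 81.2% at IGF1R. Both strands were searched for the palindromic glucocorticoid response element, its single arm AGAACA, the FOXO core GTAAACA, the insulin response core TGTTTTG and the TATA box TATAAA. The single arm was in none of the 8, while 12.39% of 35116 promoters hold it, and the full element is in 0.002848% of promoters. GTAAACA stood in IGFBP6, 186 to 180 bases before the start (2.979% of promoters), TGTTTTG in IRS2, 40 to 34 bases before the start (4.303%), and TATAAA in IGFBP4, 29 to 24 bases before it (10.72%). A match is a string of letters and not a site shown to be bound. The 5 promoters shown belong to the genes on which the results turn, and capitals mark these matches. They lie at chr13:109786584-109786833 (minus strand) for IRS2, chr7:45921273-45921522 (minus strand) for IGFBP3, chr17:40443200-40443449 (plus strand) for IGFBP4, chr2:216695550-216695799 (minus strand) for IGFBP5 and chr12:53097417-53097666 (plus strand) for IGFBP6, each printed 5′ to 3′ on its own strand.
IRS2: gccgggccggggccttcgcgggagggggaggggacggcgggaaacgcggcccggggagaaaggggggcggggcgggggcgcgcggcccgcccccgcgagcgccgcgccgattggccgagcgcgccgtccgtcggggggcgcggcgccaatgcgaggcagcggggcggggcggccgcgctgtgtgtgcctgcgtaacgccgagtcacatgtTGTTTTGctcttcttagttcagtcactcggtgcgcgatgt
IGFBP3: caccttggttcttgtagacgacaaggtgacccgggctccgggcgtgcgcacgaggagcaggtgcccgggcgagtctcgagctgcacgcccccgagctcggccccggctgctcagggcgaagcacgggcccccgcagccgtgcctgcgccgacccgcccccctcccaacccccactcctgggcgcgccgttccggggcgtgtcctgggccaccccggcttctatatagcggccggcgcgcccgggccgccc
IGFBP4: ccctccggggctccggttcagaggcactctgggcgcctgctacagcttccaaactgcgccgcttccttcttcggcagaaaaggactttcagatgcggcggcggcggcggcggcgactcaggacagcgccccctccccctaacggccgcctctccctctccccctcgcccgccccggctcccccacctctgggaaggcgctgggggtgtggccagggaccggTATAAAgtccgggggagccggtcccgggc
IGFBP5: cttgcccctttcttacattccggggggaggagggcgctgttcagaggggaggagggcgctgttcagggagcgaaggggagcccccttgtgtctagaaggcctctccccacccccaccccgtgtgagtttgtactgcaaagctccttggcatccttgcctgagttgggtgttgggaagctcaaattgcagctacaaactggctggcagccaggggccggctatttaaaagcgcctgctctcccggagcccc
IGFBP6: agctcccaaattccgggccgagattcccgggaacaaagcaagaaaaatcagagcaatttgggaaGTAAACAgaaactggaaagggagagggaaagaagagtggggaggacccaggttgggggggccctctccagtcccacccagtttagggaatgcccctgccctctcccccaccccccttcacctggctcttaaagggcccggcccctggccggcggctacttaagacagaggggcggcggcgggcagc

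In HEK293-GR cells the 10 genes spanned a wide range of levels. With siNON and vehicle, IGFBP5 stood first at 15.0 ± 1.85 FPKM, then IGF1R at 11.4 ± 1.80 FPKM, whose 3 libraries lay below all 3 of IGFBP5. INSR (5.64 ± 0.774 FPKM) and IRS2 (4.68 ± 0.995 FPKM) overlapped. IGFBP6 followed at 2.72 ± 0.518 FPKM, and IGFBP4 (1.55 ± 0.187 FPKM) and IGF2 (1.47 ± 0.322 FPKM) again overlapped. IRS1 lay at 0.999 ± 0.112 FPKM and IGFBP3 at 0.0787 ± 0.00971 FPKM, and IGFBP1 had no read (SD, n = 3 each). The related adaptor IRS4, a known mark of HEK293 cells, stood far above IRS1 and IRS2 with a mean of 61.6 FPKM in the same libraries.

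**Figure D1:**
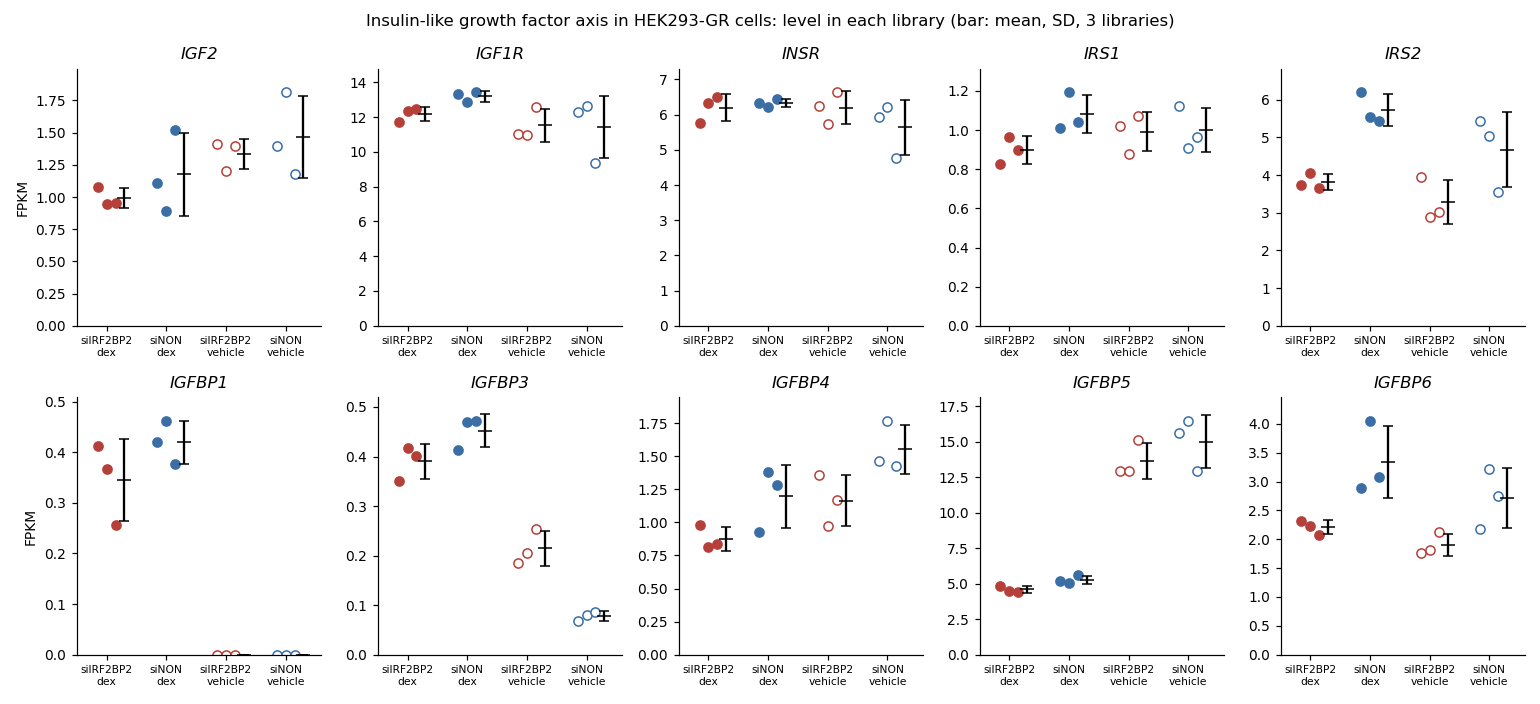
Level of each of the 10 genes in HEK293-GR cells in FPKM (vertical axis, from 0), 1 point per library, for siIRF2BP2 (red) and siNON (blue) with dex (filled) and vehicle (open); bars give mean and SD of 3 libraries. IGFBP1 had reads with dex alone, IGFBP5 was lower with dex, and IRS2 and IGFBP6 averaged lower with siIRF2BP2.

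IGFBP1 was detected only in libraries with dex in HEK293-GR cells, and dex raised IGFBP3 and lowered IGFBP5, with either small interfering RNA, while the ligand, receptors and adaptors did not pass the test. With siIRF2BP2 3 of the 10 genes changed, 2 higher and 1 lower, against 10.5% of all genes tested (5.86% higher, 4.59% lower). With siNON the count was also 2 higher and 1 lower, against 20.7% of genes (10.9% higher, 9.82% lower). The median log2 change over the 10, with IGFBP1 at its lower bound, was 0.04 with siIRF2BP2 and 0.20 with siNON, against 0.02 over all genes in either case. IGFBP1 passed the filter on low values only through the libraries with dex, so its call is a description.

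IGFBP1, a binding protein that liver secretes in fasting, is on chromosome 7 (plus strand, 45927959 to 45933267, hg19). It had 0.413, 0.367 and 0.256 FPKM in the 3 libraries with siIRF2BP2 and dex, and no read with siIRF2BP2 and vehicle. With siNON it had 0.420, 0.462 and 0.377 FPKM with dex and again no read with vehicle. The libraries with and without dex did not overlap. Against a floor of 3 reads over a group, IGFBP1 was at least 13.24-fold higher with dex in siIRF2BP2 cells (37 reads against 0) and at least 14.53-fold higher in siNON cells (43 reads against 0), a bound that covers counting error only.

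IGFBP3, the main carrier of circulating growth factor, is the neighbour of IGFBP1 on chromosome 7 (minus strand, 45951844 to 45960871, hg19). With siIRF2BP2 it had 0.351, 0.418 and 0.401 FPKM with dex and 0.185, 0.206 and 0.253 FPKM with vehicle, a rise of 0.64 ± 0.16 on the log2 scale (SE; limma adjusted p = 0.0127). With siNON it had 0.414, 0.470 and 0.472 FPKM with dex and 0.068, 0.081 and 0.087 FPKM with vehicle, a rise of 1.63 ± 0.16 (SE; limma adjusted p = 1.21e-06). Both pairs of groups were apart, and the vehicle level was the one that differed more between siIRF2BP2 and siNON. The 2 responses differed by -0.98 ± 0.22 (siIRF2BP2 minus siNON, SE), with a 95% interval from -1.46 to -0.51 and a limma adjusted p of 0.302 over all genes. None of the 10 passed limma in that test of the difference, 1 (IGFBP3) had an unadjusted p under 0.05, and 0.0128% of genes (2) were called. The counts were small, 19 to 30 reads per library with dex, 12 to 14 with siIRF2BP2 and vehicle and 4 or 5 with siNON and vehicle. The rise with siIRF2BP2 missed the threshold without replicate 1 of siIRF2BP2 with vehicle or replicate 2 of siIRF2BP2 with dex, and in the authors' deposited table it had an FDR of 0.494.

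IGFBP5, a binding protein with a strong hold on the extracellular matrix, is on chromosome 2 (minus strand, 217536828 to 217560272, hg19). It had 4.85, 4.50 and 4.45 FPKM with siIRF2BP2 and dex, and 12.9, 13.0 and 15.1 FPKM with siIRF2BP2 and vehicle. With siNON it had 5.17, 5.08 and 5.61 FPKM with dex and 15.6, 16.5 and 12.9 FPKM with vehicle. Every dex library lay below every vehicle library. The log2 change was -1.55 ± 0.10 with siIRF2BP2 (limma adjusted p = 7.23e-09) and -1.48 ± 0.10 with siNON (SE; limma adjusted p = 8.13e-09), and the interval of their difference ran from -0.35 to 0.22.

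IGF1R, the main signalling receptor, had a log2 change with dex of 0.08 ± 0.10 with siIRF2BP2 and 0.22 ± 0.10 with siNON, and INSR of 0.0005 ± 0.10 and 0.17 ± 0.10 (SE). IGF2 had -0.39 ± 0.18 with siIRF2BP2 and -0.31 ± 0.18 with siNON, IRS1 -0.13 ± 0.14 and 0.11 ± 0.14, and IRS2 0.22 ± 0.15 and 0.31 ± 0.15. IGFBP4 had -0.37 ± 0.17 with siIRF2BP2 and -0.36 ± 0.17 with siNON, and IGFBP6 0.21 ± 0.15 and 0.29 ± 0.15. None of these 7 passed the threshold in either case.

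**Figure D2:**
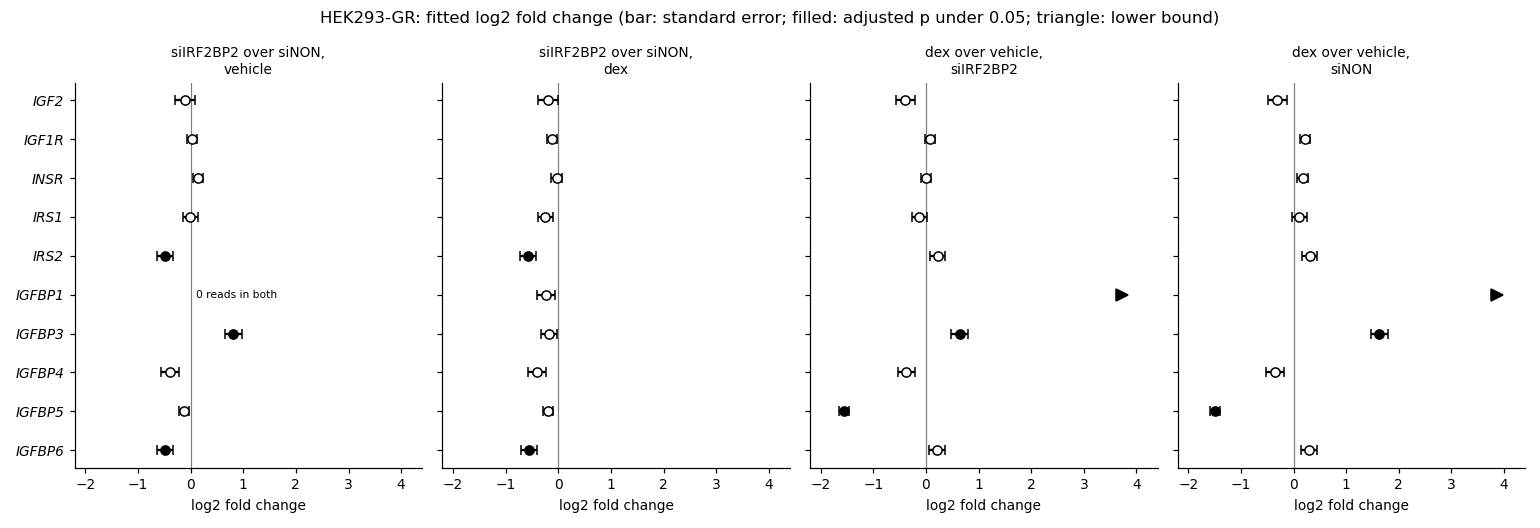
Log2 fold change (horizontal axis) of each gene in HEK293-GR cells for 4 comparisons, with SE as bars, filled where the adjusted p was under 0.05, and triangles for the lower bound of IGFBP1. IGFBP5 lay at -1.55 (siIRF2BP2) and -1.48 (siNON) in the dex panels, and IRS2 and IGFBP6 lay between -0.57 and -0.48 in both knockdown panels.

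Other genes of the pathway also moved with dex in HEK293-GR cells. IRS4 fell, with a mean of 30.2 FPKM with dex and 56.4 FPKM with vehicle in siIRF2BP2 cells (log2 change -0.90 ± 0.08, SE; limma adjusted p = 2.88e-07), and 30.2 FPKM against 61.6 FPKM in siNON cells (-1.02 ± 0.08, SE; limma adjusted p = 4.57e-08). It was the only one of 13 further adaptors and docking proteins to pass with siIRF2BP2, while with siNON SHC1 also rose and SH2B3 fell. Of 27 genes of the PI3K, AKT, FOXO and TOR branch, 4 rose and 1 fell with siIRF2BP2, and 6 rose and 3 fell with siNON, with a median log2 change of 0.02 and 0.07, where 10.5% and 20.7% of all genes were called. FOXO4 rose most among them, by 1.16 ± 0.08 with siIRF2BP2 and 1.25 ± 0.08 with siNON on the log2 scale, and PIK3R3, a regulatory subunit of PI3K, fell. The stanniocalcins STC1 and STC2, which inhibit the protease PAPPA that cuts IGFBP4, fell with either small interfering RNA among 7 tested proteases and inhibitors, and PAPPA itself fell with siIRF2BP2. Of 5 tested further ligands, receptors and carriers, IGF1 and IGFBPL1 rose in both cases, where 5.86% (siIRF2BP2) and 10.9% (siNON) of all genes rose. IGF1 stayed very low, with a mean of 0.179 FPKM with dex and 0.0323 FPKM with vehicle in siIRF2BP2 cells, and 0.186 against 0.026 FPKM in siNON cells. At such vehicle levels IGF1 may have passed the filter on low values only through the libraries with dex, so its call is a description.

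Over the 12 HEK293-GR libraries, which fall into those with and those without dex, the 3 genes whose level followed IGFBP1 most closely were FAM104A and FKBP5 (Pearson r of 0.995 each, on log2 of FPKM plus 0.1) and CNKSR3 (0.994), out of 9255 candidates. FKBP5 is a classic glucocorticoid target. For IGFBP5 they were UNC5B (0.994), SOX4 (0.992) and MYC (0.991).

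By limma, knockdown of IRF2BP2 lowered the adaptor IRS2 and the binding protein IGFBP6 in HEK293-GR cells, with and without dex, and raised IGFBP3 with vehicle. With vehicle 3 of the 10 genes changed, 1 higher and 2 lower, against 15.5% of all genes (8% higher, 7.48% lower). With dex 2 changed, both lower, against 39.7% of all genes (22.4% higher, 17.3% lower), so the share of the 10 was below that of all genes. The median log2 change over the 10 was -0.06 with vehicle and -0.22 with dex, against 0.03 and -0.0002 over all genes. IGFBP1 had no read with vehicle in either group, so it could not be called there and entered the vehicle median at 0. At an FDR under 0.05 the authors' deposited table called 0 of the 10 with vehicle (5.41% of genes) and 4 with dex (IGF1R, IRS2, IGFBP5 and IGFBP6, against 46.5% of genes).

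IRS2, the adaptor that carries much of insulin signalling in liver, is on chromosome 13 (minus strand, 110406184 to 110438914, hg19). It had 3.73, 4.07 and 3.65 FPKM with siIRF2BP2 and 6.21, 5.53 and 5.43 FPKM with siNON in libraries with dex, a log2 change of -0.57 ± 0.15 (SE; limma adjusted p = 0.00714). With vehicle it had 3.95, 2.88 and 3.03 FPKM with siIRF2BP2 and 5.45, 5.03 and 3.55 FPKM with siNON, a change of -0.49 ± 0.15 (SE; limma adjusted p = 0.0353). The groups did not overlap with dex and overlapped with vehicle through replicate 3 of siNON, without which the change was -0.67 (limma adjusted p = 0.000984). The vehicle call was lost with no filter, in a fit of the 2 groups alone, and when replicate 1 or 2 of siNON or replicate 2 or 3 of siIRF2BP2 with vehicle was left out. In the authors' deposited table IRS2 had a log2 fold change of -0.61 (FDR 7.5e-15) with dex and -0.52 (FDR 0.0735) with vehicle.

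IGFBP6, a binding protein that prefers IGF2 as its ligand, is on chromosome 12 (plus strand, 53491436 to 53496128, hg19). It had 2.32, 2.23 and 2.08 FPKM with siIRF2BP2 and 2.88, 4.05 and 3.08 FPKM with siNON in libraries with dex, a log2 change of -0.56 ± 0.15 (SE; limma adjusted p = 0.010). With vehicle it had 1.77, 1.82 and 2.12 FPKM with siIRF2BP2 and 2.18, 3.22 and 2.75 FPKM with siNON, a change of -0.48 ± 0.15 (SE; limma adjusted p = 0.0443). Neither pair of groups overlapped, and siNON libraries were the higher ones in both. The call with dex was lost without replicate 2 of siNON with dex, its highest library. The call with vehicle lay so near the threshold that leaving out 1 of 9 libraries, no filter, a pseudocount of 1 or a fit of the 2 groups alone ended it. In the authors' deposited table IGFBP6 had a log2 fold change of -0.64 (FDR 0.0218) with dex and -0.54 (FDR 0.437) with vehicle.

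IGFBP3 was the gene that rose after knockdown with vehicle, by 0.81 ± 0.16 on the log2 scale (SE; limma adjusted p = 0.00368). The per-library values given above, 12 to 14 reads with siIRF2BP2 and 4 or 5 with siNON, did not overlap. The authors' deposited table gave a log2 fold change of 1.43 with an FDR of 0.329. With dex its log2 change was -0.17 ± 0.16 and did not pass.

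IGFBP4, the binding protein cut by PAPPA, had 1.36, 0.969 and 1.17 FPKM with siIRF2BP2 and 1.46, 1.77 and 1.43 FPKM with siNON in libraries with vehicle. These groups did not overlap, but the log2 change of -0.39 ± 0.17 did not pass (SE; limma adjusted p = 0.127), nor did -0.40 ± 0.17 with dex (SE; limma adjusted p = 0.0698). IGFBP5 had a log2 change of -0.13 ± 0.10 with vehicle and -0.20 ± 0.10 with dex, neither past the limma threshold, while the authors' deposited table gave -0.22 (FDR 0.00849) with dex. IGFBP5 passed the test without replicate 3 of siNON with vehicle, at -0.23 with vehicle (limma adjusted p = 0.0495) and -0.20 with dex (limma adjusted p = 0.0477). A fit of the 2 groups alone also called IGFBP5 and IGFBP4 with dex, and leaving out replicate 1 of siNON with dex called IGFBP4 there, at -0.56.

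The ligand and receptor genes had small changes. For IGF2 the log2 change was -0.11 ± 0.18 with vehicle and -0.20 ± 0.18 with dex, for IGF1R 0.02 ± 0.10 and -0.11 ± 0.10, and for INSR 0.14 ± 0.10 and -0.03 ± 0.10 (SE). The 95% interval for IGF1R ran from -0.18 to 0.23 with vehicle and from -0.32 to 0.09 with dex, and the authors' deposited table gave IGF1R -0.14 (FDR 0.0352) with dex. IRS1 had -0.01 ± 0.14 and -0.24 ± 0.14, and IGFBP1 -0.24 ± 0.17 with dex, from 37 reads against 43. Reads placed on the read-through gene INS-IGF2 came to 92.8 to 97.0% of those on IGF2, and INS had no read, so that the 2 genes share nearly all their reads.

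Of the wider pathway in HEK293-GR cells, IGFBP2, which has the highest level among the carriers tested, fell after knockdown by 0.27 ± 0.08 with vehicle and 0.34 ± 0.08 with dex on the log2 scale (SE). SOS1 and SOS2, which link receptors to RAS, rose in both cases. SOS1 rose by 0.38 ± 0.10 and 0.66 ± 0.10 and SOS2 by 0.46 ± 0.09 and 0.61 ± 0.09. They were the 2 genes of 13 adaptors to rise, while 0 fell with vehicle and 2 fell with dex. Over all genes, 8% rose and 7.48% fell with vehicle, and 22.4% rose and 17.3% fell with dex. Of 27 genes of the PI3K, AKT, FOXO and TOR branch, 3 rose and 2 fell with vehicle, and 7 rose and 7 fell with dex, with a median log2 change of -0.03 and -0.14, where 15.5% and 39.7% of all genes were called. PIK3R2, a regulatory subunit of PI3K, had log2 changes of -0.61 ± 0.09 with vehicle and -0.69 ± 0.09 with dex. Cathepsin D (CTSD) fell, the 1 gene of 7 tested proteases and inhibitors, by 0.32 ± 0.10 with vehicle and 0.39 ± 0.10 with dex. Of the 3 proteins that bind IGF2 mRNA none passed with vehicle, and with dex IGF2BP3 rose by 0.33 ± 0.08 and IGF2BP2 had a log2 change of -0.29 ± 0.07.

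In A549 cells most of the axis was lower with siIRF2BP2 than with siNON, and IGF1R was higher. In the authors' deposited table, 1 of the 10 genes rose and 7 fell with vehicle at an FDR under 0.05, where 34.4% of the 16723 genes measured passed (16.2% higher, 18.1% lower). With dex it was again 1 and 7 (31.8% of genes, 15.3% higher and 16.5% lower). With TNF it was 1 and 5 (38.9%, 19.7% higher and 19.2% lower), and with both agents 1 and 7 (35.9%, 17.9% higher and 18.1% lower). These shares were not matched for read depth, and a gene counted as measured from 10 reads in a pooled column. With siNON and vehicle IGFBP4 had 117731 reads and IGFBP5 had 145. The authors' log2 fold changes of the 10 had a median of -0.73 with vehicle, -0.61 with dex, -0.30 with TNF and -0.65 with both, against 0.015 or less over all genes. The 4 knockdown comparisons share no columns, but the pooled columns allow no test between them.

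**Figure D3:**
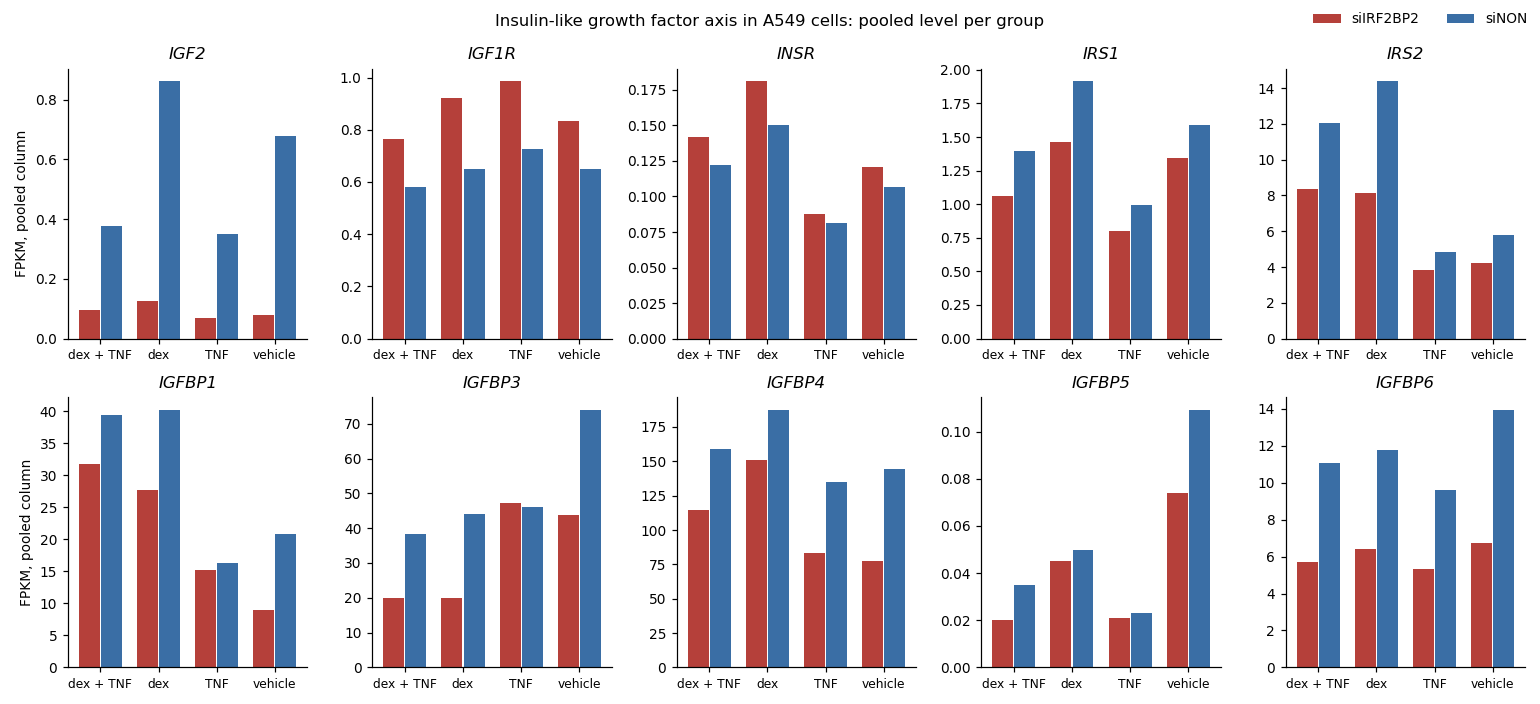
Pooled level of each of the 10 genes in A549 cells in FPKM (vertical axis, from 0) with siIRF2BP2 (red) and siNON (blue) under 4 treatments, 1 pooled column per bar and so no error bars. IGF2 ran from 0.069 to 0.125 FPKM with siIRF2BP2 and from 0.349 to 0.861 FPKM with siNON, and IGFBP1 and IRS2 were higher wherever dex was given.

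The ligand gene IGF2 had the largest fall of the 10 in each of the 4 treatments. Its pooled level was 0.095 FPKM in siIRF2BP2 and 0.377 FPKM in siNON cells with dex and TNF, 0.125 against 0.861 FPKM with dex, 0.069 against 0.349 FPKM with TNF, and 0.080 against 0.677 FPKM with vehicle. The highest siIRF2BP2 column lay below the lowest siNON column. In reads this was 36 with siIRF2BP2 and 462 with siNON under vehicle, and 54 against 587 with dex. With TNF it was 39 against 181 reads, and with both agents 41 against 221. Log2 fold changes in the authors' deposited table were -3.11 with vehicle (FDR 1.47e-28), -2.87 with dex (FDR 1.62e-35), -2.41 with TNF (FDR 1.86e-20) and -2.08 with both (FDR 5.36e-13). INS-IGF2 had 99.7 to 101.4% of the IGF2 reads and the same changes, with INS at 0, so the reads cannot be told apart between the 2 genes.

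IGF1R moved the other way. Its pooled level was 0.766 FPKM in siIRF2BP2 and 0.580 FPKM in siNON cells with both agents, 0.921 against 0.649 FPKM with dex, 0.985 against 0.726 FPKM with TNF and 0.832 against 0.648 FPKM with vehicle. The authors' deposited log2 fold changes lay between 0.29 and 0.38, each past the FDR. INSR had deposited log2 fold changes of 0.04 to 0.17 in the authors' table, none past the FDR.

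Both adaptors fell in all 4 treatments. IRS1 had authors' deposited log2 fold changes of -0.32 with vehicle, -0.48 with dex, -0.39 with TNF and -0.46 with both. IRS2 was at 8.36 FPKM in siIRF2BP2 and 12.1 FPKM in siNON cells with both agents, 8.12 against 14.4 FPKM with dex, 3.84 against 4.86 FPKM with TNF and 4.21 against 5.79 FPKM with vehicle. The authors' deposited log2 fold changes of IRS2 were -0.72, -1.08, -0.45 and -0.61 in that order. IRS2 fell after knockdown in both lines, as IGFBP6 did.

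Among the binding proteins, IGFBP4 and IGFBP6 fell in all 4 treatments in the authors' deposited table, with log2 fold changes for IGFBP4 of -1.02 with vehicle, -0.45 with dex, -0.78 with TNF and -0.58 with both. IGFBP6 was at 5.69 FPKM in siIRF2BP2 and 11.1 FPKM in siNON cells with both agents and at 6.74 against 13.9 FPKM with vehicle, and its deposited log2 fold changes in the authors' table lay between -1.12 and -0.93. IGFBP1 and IGFBP3 fell in 3 treatments and not with TNF alone. IGFBP1 was at 15.2 FPKM in siIRF2BP2 and 16.3 FPKM in siNON cells with TNF, and at 9.03 against 20.8 FPKM with vehicle. The authors' deposited log2 fold changes of IGFBP1 were -1.28 with vehicle (FDR 2.11e-12) and -0.20 with TNF (FDR 0.496). IGFBP3 was at 47.2 FPKM in siIRF2BP2 and 46.1 FPKM in siNON cells with TNF, and at 43.7 against 73.8 FPKM with vehicle. The authors' deposited log2 fold changes of IGFBP3 were -0.85 with vehicle (FDR 2.30e-07), -1.38 with dex (FDR 6.42e-22), -0.07 with TNF (FDR 0.946) and -1.07 with both (FDR 2.02e-17). Whether the knockdown change differed between treatments was not tested. IGFBP5 was low, with 17 to 145 reads per column, and did not pass.

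**Figure D4:**
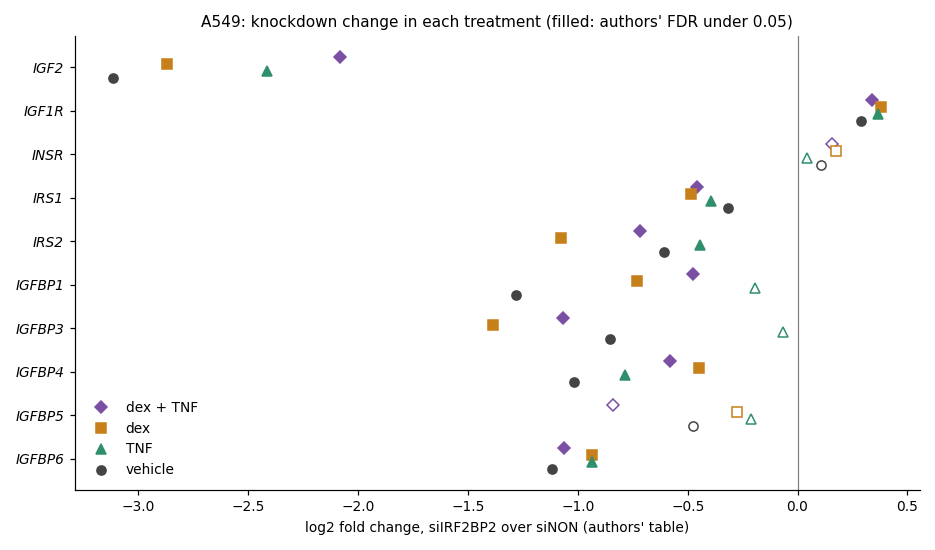
The authors' log2 fold change of siIRF2BP2 over siNON (horizontal axis) for each gene in A549 cells under 4 treatments, filled where the authors' FDR was under 0.05. IGF2 lay lowest, between -3.11 and -2.08, IGF1R lay above 0 in all 4, and the TNF values of IGFBP1 (-0.20) and IGFBP3 (-0.07) were the ones of these 2 genes that did not pass.

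Dex raised IRS2, IGFBP1, IGFBP4 and INSR and lowered IGFBP3 in A549 cells with either small interfering RNA, 4 higher and 1 lower of 10, in the authors' deposited table. All genes past the FDR came to 24.1% with siIRF2BP2 (13.4% higher, 10.7% lower) and 10.7% with siNON (6.3% higher, 4.38% lower). IRS2 had authors' deposited log2 fold changes of 0.92 with siIRF2BP2 (FDR 2.08e-07) and 1.39 with siNON (FDR 2.85e-32). IGFBP1 was at 27.7 FPKM with dex and 9.03 FPKM with vehicle in siIRF2BP2 cells, and at 40.1 against 20.8 FPKM in siNON cells. Its log2 fold changes in the authors' deposited table were 1.67 with siIRF2BP2 and 1.11 with siNON. IGFBP4 was at 151 FPKM with dex and 77.2 FPKM with vehicle in siIRF2BP2 cells, and at 187 against 145 FPKM in siNON cells. IGFBP3, which rose with dex in HEK293-GR cells, was at 20.0 FPKM with dex and 43.7 FPKM with vehicle in siIRF2BP2 A549 cells, and at 44.0 against 73.8 FPKM in siNON A549 cells. Log2 fold changes of IGFBP3 in the authors' deposited table were -1.10 with siIRF2BP2 (FDR 1.41e-14) and -0.57 with siNON (FDR 0.00252). FPKM of the 2 lines are on different length scales, so only directions were set side by side.

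TNF raised IGF1R and lowered IRS1 and IGFBP5 in A549 cells with either small interfering RNA. With siIRF2BP2, 3 of the 10 genes rose and 3 fell in the authors' deposited table, where 37.7% of all genes passed (18.8% in each direction). Besides those 3 genes, IGFBP1 and IGFBP4 rose and INSR fell there. With siNON, 1 rose and 5 fell, where 19.6% passed (10.2% higher, 9.43% lower). The authors' deposited log2 fold changes of IGF1R were 0.35 with siIRF2BP2 (FDR 3.19e-05) and 0.28 with siNON (FDR 0.0248). IRS1 was at 0.797 FPKM with TNF and 1.34 FPKM with vehicle in siIRF2BP2 cells, and at 0.994 against 1.59 FPKM in siNON cells. IGFBP1 was at 15.2 FPKM with TNF and 9.03 FPKM with vehicle in siIRF2BP2 cells (authors' deposited log2 fold change 0.94, FDR 4.13e-06), and at 16.3 against 20.8 FPKM in siNON cells (-0.15, FDR 0.777). Whether the TNF response of IGFBP1 differed between siIRF2BP2 and siNON was not tested. IGF2, IGFBP3 and IGFBP6 fell with TNF in siNON cells, IGF2 with an authors' deposited log2 fold change of -0.80 (FDR 0.00122).

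Dex added to TNF raised 5 of the 10 genes in either case, INSR, IRS1, IRS2, IGFBP1 and IGFBP4, in the authors' deposited table. It lowered IGF1R and IGFBP3 with siIRF2BP2 and IGF1R with siNON, where 24.6% (13.3% higher, 11.3% lower) and 16.8% (9.37% higher, 7.41% lower) of all genes passed. IGFBP1 was at 31.7 FPKM with both agents and 15.2 FPKM with TNF in siIRF2BP2 cells, and at 39.4 against 16.3 FPKM in siNON cells. TNF added to dex changed 2 of the 10 with either small interfering RNA, all lower, IRS1 and IGFBP4 with siIRF2BP2 (30.4% of genes passed, 17% higher and 13.4% lower) and IGF2 and IRS1 with siNON (10.5% passed, 6.43% higher and 4.06% lower). Both agents over vehicle raised 4 (INSR, IRS2, IGFBP1 and IGFBP4) and lowered 3 (IRS1, IGFBP3 and IGFBP5) with siIRF2BP2, where 41.5% of genes passed (21.6% higher, 19.9% lower). With siNON they raised 2 (IRS2 and IGFBP1) and lowered 3 (IGF2, IGFBP3 and IGFBP5), where 21.4% passed (11.7% higher, 9.62% lower).

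Of the wider pathway in A549 cells, IGFBP2 fell after knockdown in all 4 treatments, with authors' deposited log2 fold changes between -0.56 and -0.42. In that table no other gene of 5 measured further ligands, receptors and carriers fell. IGFBPL1 rose with vehicle (0.41, FDR 0.000742) and with dex (0.35, FDR 0.0317). Over all genes, 16.2% rose and 18.1% fell with vehicle, and 15.3% rose and 16.5% fell with dex. Among the same 3 IGF2 mRNA binding proteins, IGF2BP1 and IGF2BP3 rose and IGF2BP2 fell in each treatment, and with vehicle the authors' deposited log2 fold changes were 0.56, 0.93 and -0.61. Among 7 measured proteases and inhibitors none rose with vehicle and PLAU, STC1 and HTRA1 fell, where 16.2% of all genes rose and 18.1% fell. TNF raised PLAU, the urokinase gene, with authors' deposited log2 fold changes of 2.58 with siIRF2BP2 and 2.59 with siNON. Of 27 genes of the PI3K, AKT, FOXO and TOR branch, 4 rose and 8 fell after knockdown with vehicle, where 34.4% of all genes passed. TSC1 fell in all 4 treatments in the authors' deposited table (-0.79 with vehicle, -0.63 with dex, -0.61 with TNF and -0.68 with both). FOXO3 and FOXO1 fell with vehicle (-0.93 and -0.85) and TNF (-0.75 and -0.52), and in the authors' deposited table did not pass with dex (-0.02 and -0.20) or both agents (0.19 and 0.21); whether the treatments differed was not tested. Dex raised 7 of the 27 with siIRF2BP2 and 4 with siNON and lowered none at that FDR (24.1% and 10.7% of all genes passed) in the authors' deposited table, with log2 fold changes for FOXO3 of 1.64 with siIRF2BP2 and 0.72 with siNON. The adaptor SHC1 rose with dex, with authors' deposited log2 fold changes of 1.42 with siIRF2BP2 and 1.60 with siNON.

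Over the 8 pooled A549 columns, the 3 genes most like IGF2 out of 2462 candidates were RNH1 (Pearson r of 0.995), EEF2 (0.991) and PUF60 (0.987), and those most like IGFBP1 were VASP (0.971), BLOC1S3 (0.967) and LTBR (0.966), as a description over columns that share treatments.

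An IRF2BP2 peak lay inside IGFBP1 in the dex list alone. The authors' lists hold 1400 peaks with dex and 1108 with vehicle, as positions without a height, and how the 2 samples of a condition were combined is not given in the sources used here. With dex 4 of the 10 genes had a peak within 100 kb, IGF1R, INSR, IGFBP1 and IGFBP3, against 12.1% of all genes. With vehicle IGF1R and INSR did, against 9.75% of genes. These shares were not matched for gene length, and IGF1R and INSR span 315991 and 181745 bases. With dex the same peak counted for both IGFBP1 and IGFBP3. The dex peak of 332 bases at chr7:45928961-45929292 (hg19) was centred 1.168 kb from the start of IGFBP1 and lay 22.552 kb from the nearer end of IGFBP3. The nearest vehicle peak to IGFBP1 was 1281.838 kb away. IGFBP1 had 43 reads with dex and none with vehicle in siNON HEK293-GR cells, and 37 and none in siIRF2BP2 cells, as given above. Its log2 change after knockdown with dex, -0.24 ± 0.17 (SE), did not pass. IGF1R and INSR held a peak inside the gene in both lists, in INSR at chr19:7179580-7179911 with dex and chr19:7179399-7179741 with vehicle, which overlap. In IGF1R the dex peak was at chr15:99366235-99366566 and the vehicle peak at chr15:99440162-99440504, and neither receptor gene passed the limma tests of expression in HEK293-GR cells. The nearest peak to IGFBP4 lay 625.176 kb away with dex and 673.14 kb away with vehicle, and IRS1, IRS2, IGFBP5 and IGF2 were farther from any peak. The nearest peak to IGFBP6 lay 931.153 kb away with dex and 202.031 kb away with vehicle.

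**Figure D5:**
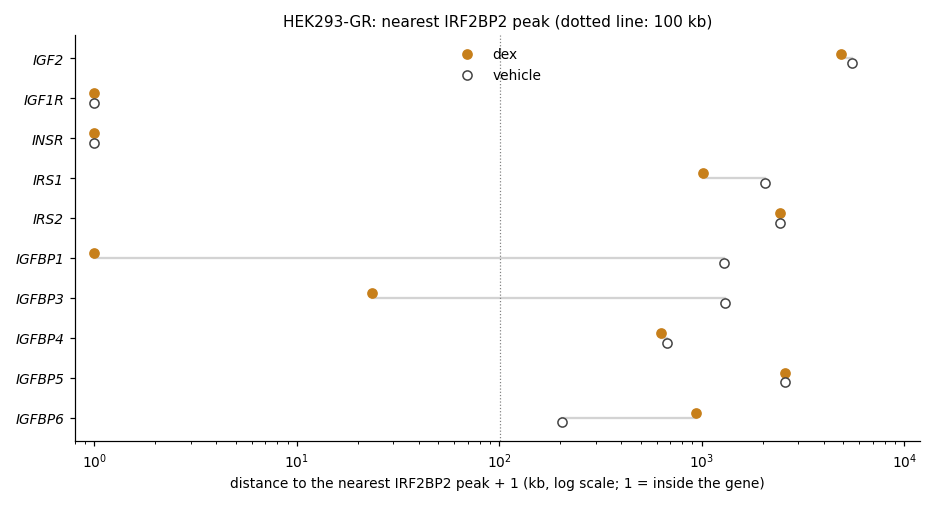
Distance in kb, plus 1, from each gene to the nearest IRF2BP2 peak in HEK293-GR cells (log axis; 1 means inside the gene) with dex (filled) and vehicle (open); the dotted line marks 100 kb. IGFBP1 and IGFBP3 had a peak within 100 kb with dex alone, and IGF1R and INSR in both lists.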

How the data were processed

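RNA of 12 HEK293-GR libraries and of 8 pooled A549 columns and 2 IRF2BP2 peak lists were used, all on hg19. FPKM values were made by the authors, per the file headers, and Trimmomatic 0.33, TopHat2, Bowtie2, HOMER and edgeR are named for RNA and Bowtie 0.12.9, HOMER 4.10.3 and bedtools for ChIP, per the submitters' processing notes. The strandedness of the counting is not given in the sources used here. In the deposited HEK293-GR table the FPKM of a gene times its length came out as whole reads (tolerance 0.01 reads beyond rounding). This held for at least 99.89% of the 5464 to 5796 genes checked in each library. In the pooled A549 columns it held for at least 97.44% of the genes checked. The log2 fold changes and the FDR, a p-value adjusted by the authors, were copied from the authors' deposited tables. The peak lists hold positions, and their score column, as deposited, is constant and was not used.

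From these values, log2 of FPKM plus 0.1 was fitted with limma 3.58.1 (trend, R 4.3.3) over 12 libraries in 4 groups, for genes with at least 10 recovered reads in 3 or more libraries, with Benjamini-Hochberg adjustment over 15594 genes. Fold changes of low genes are understated on that scale. The fit was tested on simulated data. No count test was run. A549 genes counted as measured had at least 10 reads in at least 1 pooled column. A peak was near a gene within 100 kb of the gene body. Python 3.11.15, pandas 2.3.3, numpy 2.4.6 and matplotlib 3.10.9 were used. Of 16 labelled HEK293-GR RNA samples, 4 were not analysed here. Of the 10 genes all could be named, and of the pathway and marker lists at most 4 genes per comparison were, those with the smallest p, and 1 such gene is not reported here. The genes and lists were chosen with earlier results of these data known. Other pseudocounts (1, 0.01), no filter, median-of-ratios scaling, a replicate block, fits of 2 groups, each library left out, an FDR of 0.01, another choice of transcript and windows of 50 and 250 kb were tried.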

Additional observations from a re-analysis of the deposited data

Results flagged for a closer look

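IGFBP3 was called in opposite directions under the same contrast, by limma in HEK293-GR cells and by the authors' FDR in A549 cells. Knockdown with vehicle gave a log2 change of 0.8122 in HEK293-GR cells (limma) and -0.8520 in A549 cells (the authors' deposited table). Dex gave 0.6422 in HEK293-GR and -1.0956 in A549 cells with siIRF2BP2, and 1.6271 in HEK293-GR and -0.5679 in A549 cells with siNON. By the authors' FDR in HEK293-GR cells, IGFBP3 did not pass for knockdown with vehicle (0.329) or dex with siIRF2BP2 (0.494). It passed for dex with siNON (0.000131), so on that measure only this contrast was called in both lines. The difference between the lines was not tested, since the A549 columns are pooled. In HEK293-GR cells these values rest on 4 to 30 reads per library.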

How the results depend on the processing

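Of the changes of the 10 genes in HEK293-GR cells, 275 of 284 values under another setting kept their direction and their side of the threshold. Fits of the 2 groups alone called 567 genes for knockdown with vehicle, against 2414 (37.7% of calls higher, against 51.7%), and 1 of the 10 genes there and 4 with dex. No filter also left 1 of the 10 with vehicle. For the difference of dex responses, a pseudocount of 1 called 22 genes and the replicate block 0, against 2, and a fit of 2 groups was not possible. INSR with dex and siIRF2BP2 was -0.0262 with median-of-ratios scaling (0.0005 otherwise), and the difference of IGFBP4 was 0.0133 with a pseudocount of 1 (-0.0104 otherwise). Replicate numbers do not pair the samples (correlations of deviations from -0.3773 to 0.2609). The replicate block called 1888 genes for knockdown with vehicle and 5480 with dex, 1450 for dex with siIRF2BP2 and 2628 with siNON, and left the counts of the 10 at 3, 2, 3 and 3.

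With 1 library left out, genes called ranged from 1161 (without replicate 2 of siIRF2BP2 with vehicle) to 4815 (without replicate 3 of siNON with vehicle) for knockdown with vehicle, with 1173 and 1349 without replicates 1 and 2 of siNON with vehicle. They ranged from 1976 (without replicate 3 of siNON with dex) to 3909 for dex with siNON and from 0 to 7 for the difference, and the count of the 10 from 1 to 4 for knockdown with vehicle and from 1 to 3 with dex. Values that changed sign stayed small. For knockdown with vehicle they ran from -0.2444 to 0.0454 for IGF2, from -0.1142 to 0.1002 for IGF1R and from -0.0693 to 0.0701 for IRS1. INSR ran from -0.0668 to 0.0192 for knockdown with dex and from -0.0547 to 0.0512 for dex with siIRF2BP2. The differences ran from -0.2517 to 0.1039 for IGF2, -0.2125 to 0.002 for IGF1R, -0.2013 to 0.0997 for IRS2, -0.1687 to 0.0975 for IGFBP4, -0.1362 to 0.0372 for IGFBP5 and -0.2047 to 0.0655 for IGFBP6. The causes of these changes were not tested. With an FDR of 0.01 or another transcript, the counts in A549 cells stayed within 1.5 times. Windows of 50 and 250 kb gave 4 of the 10 genes a peak with dex (7.27% and 24.2% of all genes), and 2 and 3 with vehicle (6.04% and 19.0%). Depth limits IGFBP1 and IGFBP3 in HEK293-GR cells and IGFBP5 in A549 cells. It also limits the siIRF2BP2 level of IGF2 in A549 cells, at 36 to 54 reads per column.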
